A study of Homo sapiens with 16 samples.

Results

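The transcripts of 10 amino acid transporter genes were followed in 4 human B-lineage lines, each set as hypoxia-resistant cells against its parental cells. The genes were taken as a fixed list (SLC7A1, SLC7A2, SLC7A5, SLC7A6, SLC7A11, SLC3A2, SLC1A4, SLC1A5, SLC38A1 and SLC38A2), and each was read from the probe set that carried its symbol alone, the brightest over all arrays where a gene had several. All 10 were among the 18417 genes with such a probe set, and all 10 were among the 12639 genes bright enough to test, that is, above 6.27, the median of the whole table on the log2 scale, in at least 2 arrays. SLC7A2 met that rule through 6 arrays of KMS-11 and IM-9, and the other 9 genes met it in all 16 arrays. SLC1A5 had 2 probe sets, and the other 9 genes had 1 each.

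The study measured RNA on Affymetrix expression arrays in hypoxia-resistant (HR) cells of 4 lines (RPMI8226, KMS-11, U266, IM-9) kept at 1% oxygen for 24 hours, and in the parental cells of the same lines kept at 20% oxygen for 24 hours, with 2 arrays per group. All HR cells were measured at 1% oxygen and all parental cells at 20%, so the resistant state and the oxygen level at harvest cannot be told apart in any comparison. The labels do not say how the HR sublines were made, whether each is a clone, or whether both arrays of a group represent different cultures, so p-values within a line measure only the spread between these arrays, which may be technical. RPMI8226, KMS-11 and U266 are myeloma lines, and IM-9 is labelled as one as well, although it is widely described as a B lymphoblastoid line.

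Cells import amino acids through families of membrane carriers that differ in what they carry. The cationic carriers SLC7A1 and SLC7A2 take up arginine, lysine and ornithine. SLC7A5, SLC7A6 and SLC7A11 are light chains that reach the cell surface bound to the shared heavy chain SLC3A2, also called CD98 or 4F2hc. SLC1A4 and SLC1A5 exchange small neutral amino acids and glutamine, and SLC38A1 and SLC38A2 take up glutamine and other neutral amino acids together with sodium. Plasma cells and myeloma cells make large amounts of immunoglobulin, which gives them a high demand for amino acids, and shortage of amino acids is known to raise many carrier genes through the transcription factor ATF4.

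The identity of the lines was read from markers. Of 8 plasma cell markers, 6 or 7 were above the table median in every group, and JCHAIN, the joining chain of secreted antibodies, was the brightest of them in each group, with group means between 12.38 and 13.01 (log2). Of the 7 measured B cell markers, 6 were above the table median in HR and in parental IM-9, against 1 to 4 in the groups of the other lines, and PAX5, the B cell master regulator, was at 8.49 in HR and 8.48 in parental IM-9. Of 5 myeloid markers 0 were above the median in any group, and of 6 markers each of T and NK cells and of stromal cells 1 or 2 were. Some of these markers changed with HR. In IM-9, 3 of the 7 B cell markers fell, among them CD22 (9.11 in HR against 10.41 in parental cells), while 3 of the 8 plasma cell markers rose and 1 fell, JCHAIN being at 12.96 in HR against 12.38 in parental cells and PRDM1 at 10.54 against 10.04. In RPMI8226 3 plasma cell markers rose, CD38 by 1.52 ± 0.12, and 1 fell. Of the B cell markers 1 rose and 1 fell there, MS4A1 being at 10.19 in HR against 9.50 in parental cells and FCER2 at 8.01 against 9.32. In U266 1 marker of each list rose and 1 fell. SLAMF7 fell by 1.39 ± 0.13 there, and BCL6 was at 8.25 in HR against 7.42 in parental cells. Other members of the same lists went the other way in U266. The plasma cell marker IRF4 was at 10.80 in HR against 10.46, and the B cell marker CD79A at 5.93 against 6.65. In KMS-11 1 of these markers was called, IRF4, which fell by 0.30 ± 0.06. Over all genes, 14.4% rose and 21.3% fell in IM-9, 10.7% and 15.3% in RPMI8226, 9.68% and 8.42% in U266, and 2.44% and 5.83% in KMS-11. The part of these marker changes in the results below was not tested. Of 9 genes known to rise at low oxygen, 8 rose in KMS-11 and 9 in each other line, among them the glucose carrier SLC2A1, which rose in 4 of 4 lines, by 2.23 ± 0.12 in U266 and by 0.58 to 1.35 (± 0.12) elsewhere.

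Promoter windows of 8 of the 10 genes were found in the RefSeq table (GRCh38.p14), 14 windows of 300 bases in all, each covering 250 bases before to 50 after a transcript start, and were searched on both strands. SLC7A2 and SLC7A11 had no window there and were not searched for any motif. The motif TGATGNAA, the core of the C/EBP-ATF response element through which ATF4 acts, was found in 5 of the 14 windows, those of 5 different genes, and in 3.62% of all 35116 windows. The sites are shown because ATF4 is a known regulator of several of these carriers and because the genes that hold them did not all change in the same way, as the values below show. Capitals mark the match, read 5′ to 3′ on the strand of the gene.
SLC1A4: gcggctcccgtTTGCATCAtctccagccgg
SLC3A2: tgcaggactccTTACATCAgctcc
SLC38A1: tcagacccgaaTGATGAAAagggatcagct
SLC7A1: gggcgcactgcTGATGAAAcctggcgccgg
SLC1A5: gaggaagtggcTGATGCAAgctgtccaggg
The SLC1A4 stretch lies at chr2:64989381-64989410 on the plus strand, its match beginning 7 bases upstream of a listed start. The SLC3A2 stretch, at chr11:62881725-62881748 on the plus strand, is cut at the end of its window, with the match 37 bases downstream of a listed start. SLC38A1 has its match 4 bases upstream of a listed start (chr12:46266502-46266531, minus strand), SLC7A1 7 bases downstream (chr13:29595663-29595692, minus strand) and SLC1A5 97 bases upstream of a listed start (chr19:46784893-46784922, minus strand). The E-box CACGTG, which MYC binds among other factors, was in the windows of 2 genes and in 7.26% of all windows.
SLC7A5: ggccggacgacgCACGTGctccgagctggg
SLC1A5: ggcgggagtggtCACGTGgacaggacgggg
These lie at chr16:87869620-87869649 and chr19:46787326-46787355, both on the minus strand, 130 and 50 bases upstream of a start. The core of the hypoxia response element, ACGTG or GCGTG, which overlaps the E-box, was in 11 of the 14 windows against 48.45% of all windows, and TGACNNNGC, the core of the antioxidant response element, in 5 against 13.35%. A match says only that the letters are there.

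Within lines, HR cells were set against their own parental cells in a limma fit over all 16 arrays, with p-values adjusted over all 12639 genes by the method of Benjamini and Hochberg and a threshold of 0.05. The 40 member comparisons gave 17 calls, 14 falls and 3 rises. In IM-9, 7 of the 10 genes were called, 6 falls and 1 rise, where 35.7% of all genes tested were called (21.3% fell, 14.4% rose). In KMS-11 4 were called, all of them falls, where 8.27% of all genes were called (5.83% fell, 2.44% rose). In RPMI8226 2 genes rose and 2 fell, where 26.0% were called (10.7% rose, 15.3% fell), and in U266 2 fell, where 18.1% were called (8.42% fell, 9.68% rose). The median difference over the 10 genes was −0.21 in IM-9, −0.17 in KMS-11, −0.08 in U266 and −0.01 in RPMI8226 (log2), beside −0.06, −0.02, −0.01 and −0.01 over all genes tested. Leaving out 1 array of the line at a time, 10 of the 17 calls were kept every time and 7 were lost at least once. With each array centred on its median the KMS-11 calls over all genes split into 420 higher and 480 lower, against 308 higher and 737 lower as analysed.

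**Figure D1:**
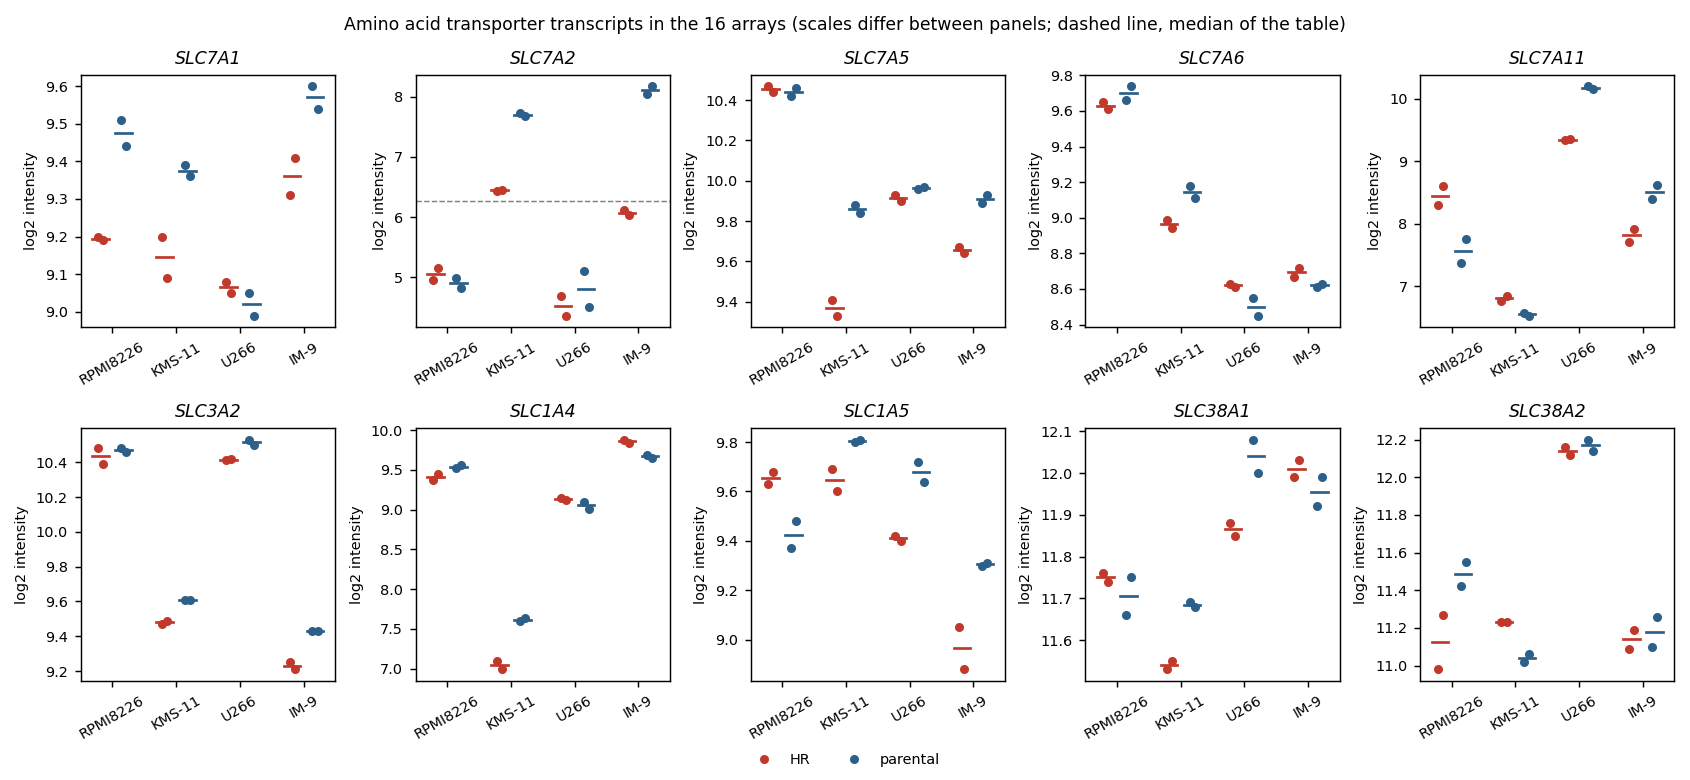
Level of each of the 10 transcripts (vertical axis, log2 intensity; scales differ between panels) in the 16 arrays, by line, with HR arrays in red to the left of parental arrays in blue; points are arrays, bars the means of 2 arrays, and the dashed line in the SLC7A2 panel is the table median of 6.27. SLC7A2 is above that line in parental and HR KMS-11 and in parental IM-9, and SLC7A11 is highest in U266.

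The cationic carriers are described first. SLC7A2, an arginine and lysine carrier known for its role in immune cells and liver, had the largest change of the 10 genes. Its log2 intensities were 6.12 and 6.03 in IM-9 HR arrays, against 8.05 and 8.18 in parental IM-9 arrays. In KMS-11 they were 6.44 and 6.45 in HR arrays, against 7.73 and 7.68 in parental arrays. The HR and parental arrays did not overlap in either line, which was also so for 65.1% of all tested genes in IM-9 and 59.1% in KMS-11. In U266 the share was 62.0% and in RPMI8226 57.7%, and these shares apply wherever arrays are called apart below. The IM-9 HR arrays of SLC7A2 lay below the table median, so that the fold in IM-9 rests on a dim signal. SLC7A2 fell by 2.05 ± 0.16 on the log2 scale in IM-9 (4.13-fold higher in parental cells, adjusted p = 8.19e-07; errors are standard errors of the fit, with 2 arrays per group) and fell by 1.27 ± 0.16 in KMS-11 (2.40-fold higher in parental cells, adjusted p = 0.000439). Without any one array of the line these differences stayed between −2.11 and −1.98 in IM-9 and between −1.29 and −1.24 in KMS-11. In bulk RNA, fewer cells with a transcript and less transcript per cell cannot be told apart.

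In the other lines SLC7A2 stayed under the table median in all arrays. It was at 4.95 and 5.15 in RPMI8226 HR arrays against 4.99 and 4.82 in parental arrays, and at 4.68 and 4.36 in U266 HR arrays against 5.11 and 4.51 in parental arrays. The groups overlapped in both lines, and the differences were 0.14 in RPMI8226 (95% interval −0.19 to 0.48) and −0.29 in U266 (−0.63 to 0.05). The U266 value rests on single arrays: it was 0.01 without parental array 1 and −0.59, past the threshold with adjusted p = 0.0121, without parental array 2. Parental IM-9 and parental KMS-11, at means of 8.12 and 7.71, were above parental RPMI8226 at 4.91 (adjusted p = 6.28e-10 and 2.84e-09), and no fold is given because the table holds no detection calls and 4.91 lies under its median. Parental U266 and parental RPMI8226, both under the median, differed by −0.10 ± 0.16 (adjusted p = 0.582). Of the 20 tested genes nearest to SLC7A2 on chromosome 8, 7 fell and 2 rose in IM-9, with a median difference of −0.11, and in KMS-11 1 fell and 0 rose (median −0.03).

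SLC7A1, the carrier of cationic amino acids in most tissues, fell in 3 lines by small amounts. It was at 9.20 and 9.19 in RPMI8226 HR arrays against 9.51 and 9.44 in parental arrays (fell by 0.28 ± 0.06, adjusted p = 0.00498). KMS-11 had 9.20 and 9.09 in HR arrays against 9.39 and 9.36 in parental arrays (fell by 0.23 ± 0.06, adjusted p = 0.041), and IM-9 had 9.31 and 9.41 against 9.60 and 9.54 (fell by 0.21 ± 0.06, adjusted p = 0.0212). The arrays of each of these pairs of groups were apart, but the KMS-11 call was lost without any of the 4 arrays (adjusted p from 0.0736 to 0.267) and the IM-9 call without parental array 1 or HR array 1 (0.109 and 0.163). In U266, SLC7A1 was at 9.08 and 9.05 in HR arrays against 9.05 and 8.99 in parental arrays, a difference of 0.05 (95% interval −0.09 to 0.18).

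SLC7A1 lies on chromosome 13, where 58.4% of the 214 other tested genes fell in RPMI8226, against 15.3% of all genes. Of its 20 nearest tested genes 11 fell and 1 rose in that line, and their median difference was −0.26, close to the −0.28 of SLC7A1 itself. The part of this regional shift in the SLC7A1 value was not tested. In KMS-11, 0 of the 20 neighbours fell and 1 rose (median 0.06), and in IM-9 1 fell and 8 rose (median 0.11), so that SLC7A1 moved against most of its called neighbours there.

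**Figure D2:**
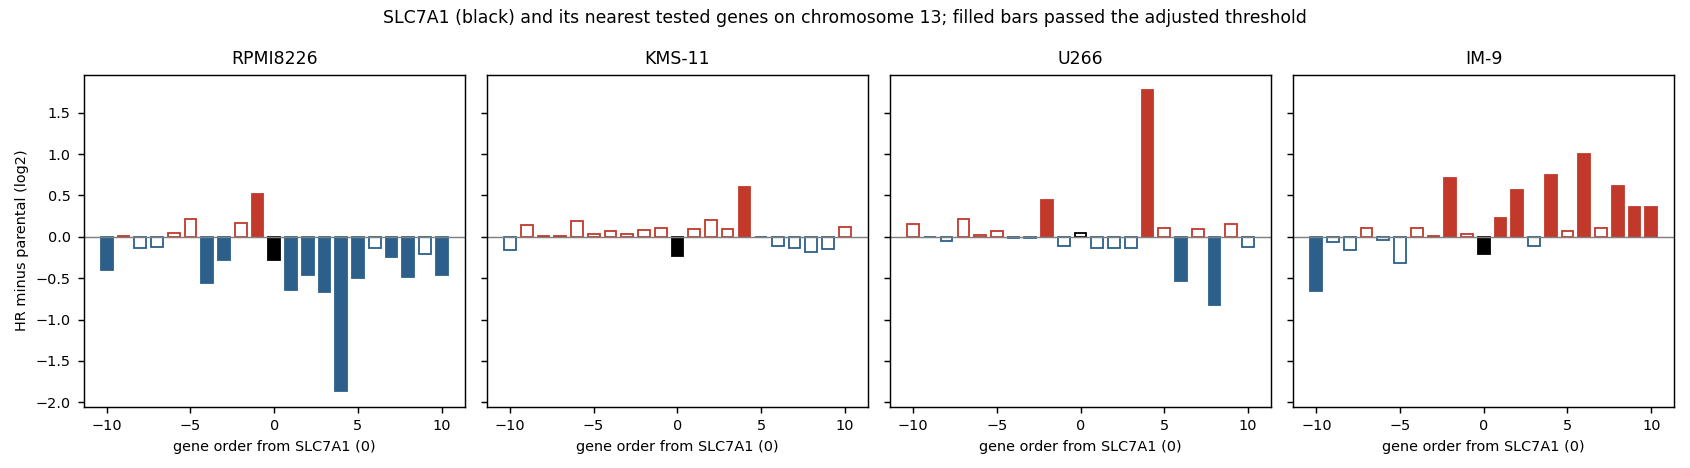
HR minus parental difference (vertical axis, log2) of SLC7A1, in black at position 0, and of the 10 tested genes on each side of it in their order along chromosome 13 (horizontal axis), in the 4 lines; filled bars passed the adjusted threshold. In RPMI8226 11 of the 20 neighbours fell, and in IM-9 8 rose.

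Of the heavy chain and its light chains, the cystine carrier changed most. SLC7A11, also called xCT, exports glutamate in exchange for cystine, which cells use to make glutathione. It was at 8.30 and 8.60 in RPMI8226 HR arrays, against 7.37 and 7.76 in parental arrays. In U266 it was at 9.33 and 9.35 in HR arrays, against 10.20 and 10.15 in parental arrays. The arrays were apart in both lines, in opposite directions: SLC7A11 rose by 0.88 ± 0.13 in RPMI8226 (1.84-fold, adjusted p = 0.000236) and fell by 0.83 ± 0.13 in U266 (1.78-fold higher in parental cells, adjusted p = 0.000484). In IM-9 it was at 7.71 and 7.92 in HR arrays against 8.40 and 8.62 in parental arrays, and fell by 0.70 ± 0.13 (1.62-fold higher in parental cells, adjusted p = 0.001). These 3 calls held without each array of the line in turn. In KMS-11, where the level was lowest, it was at 6.77 and 6.84 in HR arrays against 6.57 and 6.53 in parental arrays, apart but not past the threshold (0.26, 95% interval −0.02 to 0.54).

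The HR effect on SLC7A11 differed between the lines (F test over the 4 effects in limma, adjusted p = 2.2e-05). SLC7A11 also differed most between the parental lines. Its parental means ran from 10.17 in U266 through 8.51 in IM-9 and 7.57 in RPMI8226 to 6.55 in KMS-11, and all 6 pairs of parental lines differed past the threshold, U266 over KMS-11 by 12.35-fold. The range was 2.54 between HR means, against 3.63 between parental means (log2). RPMI8226 HR cells, at a mean of 8.45, did not differ past the threshold from parental IM-9 cells (adjusted p = 0.671).

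SLC7A5, or LAT1, imports leucine and other large neutral amino acids. In KMS-11 it was at 9.41 and 9.33 in HR arrays, against 9.88 and 9.84 in parental arrays. In IM-9 it was at 9.67 and 9.64 in HR arrays, against 9.89 and 9.93 in parental arrays. Both pairs of groups were apart. SLC7A5 fell by 0.49 ± 0.06 in KMS-11 (adjusted p = 0.000237) and fell by 0.26 ± 0.06 in IM-9 (adjusted p = 0.00305), and both calls held without each array of the line in turn. RPMI8226 had 10.47 and 10.44 in HR arrays against 10.42 and 10.46 in parental arrays, a difference of 0.01 (95% interval −0.11 to 0.14), and U266 had 9.93 and 9.90 against 9.96 and 9.97, a difference of −0.05 (−0.17 to 0.07). RPMI8226 was the highest line in both conditions, and parental KMS-11, IM-9 and U266 did not differ past the threshold from each other (adjusted p from 0.102 to 0.417).

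SLC3A2, the heavy chain that the light chains share, was called in IM-9 alone of the 4 lines. Its difference was −0.20 ± 0.05 in IM-9, where it fell (HR arrays 9.25 and 9.21, parental arrays 9.43 in both, adjusted p = 0.0115, and 0.0793 without HR array 2). The arrays were also apart in KMS-11, at 9.47 and 9.49 in HR against 9.61 in both parental arrays, and in U266, at 10.41 and 10.42 in HR against 10.53 and 10.50 in parental arrays. Neither difference passed (−0.13, 95% interval −0.25 to −0.02, and −0.10, −0.22 to 0.02). RPMI8226 HR arrays, at 10.48 and 10.39, spanned the parental arrays at 10.48 and 10.46. SLC3A2 was higher in RPMI8226 and U266 than in KMS-11 and IM-9 in both conditions: the lowest of the 4 higher groups had a mean of 10.41 and the highest of the 4 lower groups 9.61 (adjusted p = 2.39e-08 between these neighbours). Its difference was below 0 in 4 of 4 lines, and the HR effect did not differ between lines past the threshold (F test, adjusted p = 0.294).

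SLC7A6, a light chain that exchanges arginine for neutral amino acids, was called in no line. RPMI8226 HR arrays were at 9.65 and 9.61, against 9.66 and 9.74 in parental arrays, and KMS-11 HR arrays were at 8.99 and 8.94, against 9.18 and 9.11 in parental arrays. U266 HR arrays were at 8.63 and 8.61, against 8.55 and 8.45 in parental arrays, and IM-9 HR arrays were at 8.67 and 8.72, against 8.61 and 8.63 in parental arrays. The groups were apart in all 4 lines, lower in HR in 2 and higher in 2, a separation found for 65.1% of all tested genes in IM-9, 62.0% in U266, 59.1% in KMS-11 and 57.7% in RPMI8226. The largest difference was −0.18 in KMS-11 (95% interval −0.31 to −0.05, adjusted p = 0.0833). RPMI8226 was highest in both conditions, followed by KMS-11, while the 4 groups of IM-9 and U266 lay between 8.50 and 8.69 with no neighbours in the order past the threshold. Parental RPMI8226 had 2.30-fold more signal than parental U266.

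**Figure D3:**
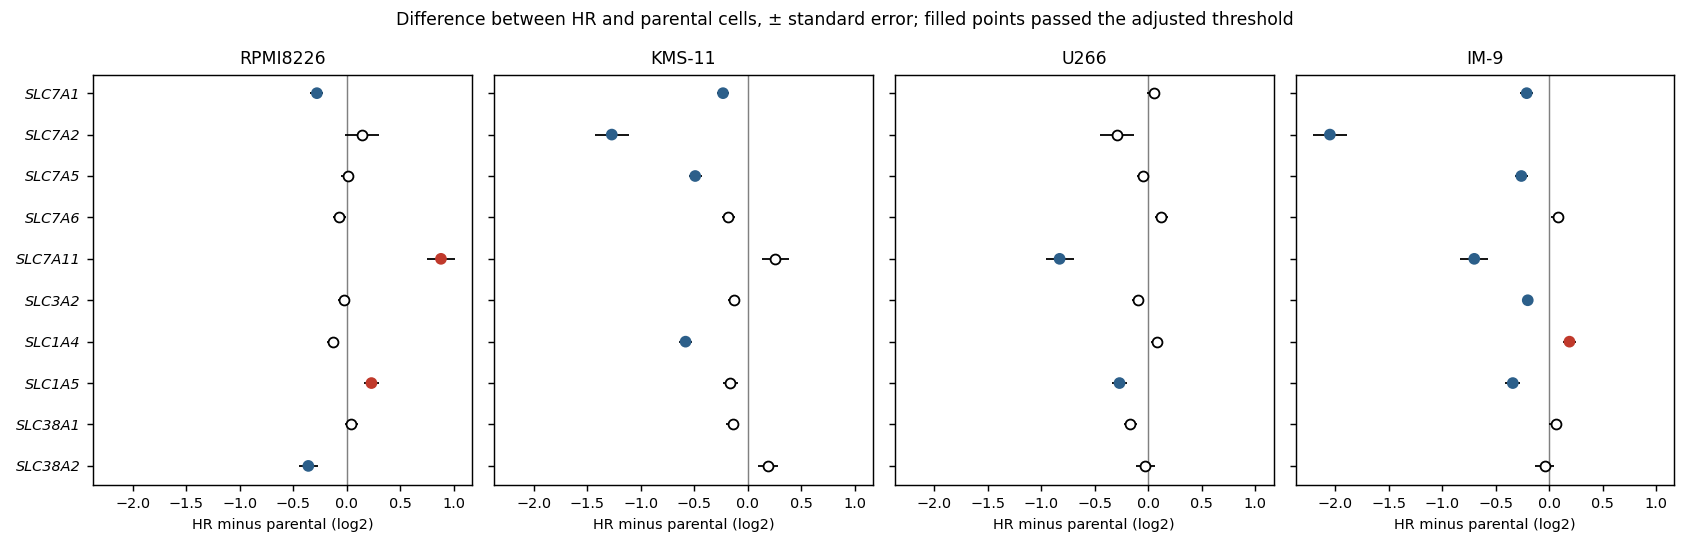
HR minus parental difference (horizontal axis, log2, with its standard error as a bar) of the 10 genes in the 4 lines; filled points passed the adjusted threshold, red for rises and blue for falls, and open points did not. SLC7A2 lies at −2.05 in IM-9 and −1.27 in KMS-11, and SLC7A11 at 0.88 in RPMI8226 and −0.83 in U266.

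Of the small neutral amino acid exchangers, SLC1A4, or ASCT1, fell in KMS-11. There it was at 7.09 and 6.99 in HR arrays, against 7.60 and 7.63 in parental arrays, and fell by 0.58 ± 0.06 (1.49-fold higher in parental cells, adjusted p = 0.000159). In IM-9 it was at 9.88 and 9.84 in HR arrays, against 9.69 and 9.65 in parental arrays, and rose by 0.19 ± 0.06 (adjusted p = 0.0279). The arrays were apart in both lines, the KMS-11 call held without each array in turn, and the IM-9 call was lost without any of the 4 (adjusted p from 0.0537 to 0.144). RPMI8226 had 9.37 and 9.45 in HR arrays against 9.52 and 9.56 in parental arrays (−0.13, 95% interval −0.26 to 0.00), and U266 had 9.15 and 9.12 against 9.10 and 9.01 (0.08, −0.05 to 0.22). KMS-11 stood apart from the other lines: its parental cells had 4.15-fold less SLC1A4 signal than parental IM-9, 3.80-fold less than parental RPMI8226 and 2.72-fold less than parental U266. The HR effect differed between lines (F test, adjusted p = 7.81e-05), and the range between HR group means was 2.82, against 2.05 between parental means (log2).

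SLC1A5, or ASCT2, the glutamine exchanger, went up in RPMI8226 and down in U266 and IM-9. It was at 9.63 and 9.68 in RPMI8226 HR arrays, against 9.37 and 9.48 in parental arrays. In U266 it was at 9.42 and 9.40 in HR arrays against 9.72 and 9.64 in parental arrays, and in IM-9 at 9.05 and 8.88 against 9.30 and 9.31. The arrays were apart in all 3 lines. SLC1A5 rose by 0.23 ± 0.07 in RPMI8226 (adjusted p = 0.0262), fell by 0.27 ± 0.07 in U266 (adjusted p = 0.0167) and fell by 0.34 ± 0.07 in IM-9 (adjusted p = 0.0022). The IM-9 call held without each array in turn, and the difference there lay between −0.43 and −0.26. The RPMI8226 call was lost without parental array 1, HR array 1 or HR array 2 (adjusted p = 0.153, 0.0601 and 0.107), and the U266 call without parental array 1, HR array 1 or HR array 2 (0.131, 0.0749 and 0.0912). KMS-11 had 9.69 and 9.60 in HR arrays against 9.80 and 9.81 in parental arrays (−0.16, 95% interval −0.31 to −0.01, adjusted p = 0.197).

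The second probe set of SLC1A5 was dim, between 6.18 and 6.75 in the 16 arrays, and correlated with the first at r = 0.53 over the 16 arrays, which share lines and groups. Its differences were 0.12 in RPMI8226, −0.26 in IM-9, −0.21 in KMS-11 and −0.17 in U266, the same signs as those of the first. With the mean of both probe sets the RPMI8226 difference was 0.18 and was no longer past the threshold (adjusted p = 0.0513).

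The sodium-coupled carriers SLC38A1 and SLC38A2, which lie next to each other on chromosome 12, changed little. SLC38A2, a carrier known to be raised when amino acids are short, was at 10.98 and 11.27 in RPMI8226 HR arrays, against 11.42 and 11.55 in parental arrays, and fell by 0.36 ± 0.09 (adjusted p = 0.01). The arrays were apart, but the HR arrays differed from each other by more than the HR array nearest to the parental arrays differed from them, and the call was lost without parental array 2 or HR array 1 (adjusted p = 0.0823 and 0.108). KMS-11 HR arrays were both at 11.23, against 11.02 and 11.06 in parental arrays (0.19, 95% interval −0.00 to 0.38). In U266 and IM-9 the groups overlapped, at 12.16 and 12.12 in U266 HR arrays against 12.20 and 12.14 in parental arrays, and at 11.09 and 11.19 in IM-9 HR arrays against 11.10 and 11.26 in parental arrays. The level in U266 was above all other lines in both conditions, parental U266 having 2.19-fold more signal than parental KMS-11 (adjusted p = 9.94e-08).

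SLC38A1 was called in no line. Its arrays were at 11.76 and 11.74 in RPMI8226 HR against 11.66 and 11.75 in parental, and at 11.53 and 11.55 in KMS-11 HR against 11.69 and 11.68 in parental. They were at 11.88 and 11.85 in U266 HR against 12.08 and 12.00 in parental, and at 11.99 and 12.03 in IM-9 HR against 11.92 and 11.99 in parental. The largest difference was −0.17 in U266 (95% interval −0.30 to −0.04), not past the threshold as analysed (adjusted p = 0.0616) and past it with quantile normalization again, centred arrays, array weights or a trended prior (0.0492, 0.0383, 0.0203 and 0.00801). SLC38A1 had the narrowest range of the 10 between parental means, 0.35, with 0.47 between HR means (log2), and no neighbours in the order of its 8 group means differed past the threshold.

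With the line as the unit (n = 4 lines, 2 arrays averaged first), limma called 0 of the 10 genes, and 0% of all genes were called. At an unadjusted p under 0.05 there were 793 genes, among them 1 of the 10, SLC7A2, with a mean difference of −0.86 ± 0.35 (unadjusted p = 0.0497, adjusted p = 0.764, lower in 3 of 4 lines). SLC7A1 averaged −0.17 ± 0.08, SLC7A5 −0.20 ± 0.10 and SLC3A2 −0.12 ± 0.07, lower in 3, 3 and 4 of 4 lines. SLC7A11 averaged −0.10 ± 0.29, lower in 2 lines and higher in 2. The F test found that the HR effect differed between lines for 8 of the 10 genes, all but SLC3A2 and SLC38A1, where 45.4% of all tested genes differed. The counts per gene were read against all genes as well: 3 of the 10 (SLC7A11, SLC1A4 and SLC1A5) rose in at least 1 line and fell in at least 1 other, against 10.8% of all genes, and 2 (SLC7A6 and SLC38A1) were called in 0 lines, against 42.0%. SLC7A1, SLC7A11 and SLC1A5 were called in 3 lines, and 6.04% of all genes were called in at least 3. Several calls behind these counts were lost without at least 1 array, as given above. They were those of SLC1A4 in IM-9, SLC1A5 in RPMI8226 and U266, and SLC7A1 in KMS-11 and IM-9. In all 4 lines 0 of the 10 were called, against 1.06% of all genes called, 0.0791% that fell and 0.348% that rose in all 4.

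The parental lines were also compared with each other. Of the 60 comparisons of a gene between 2 parental lines, 46 passed the threshold. Parental IM-9 differed from parental RPMI8226 in 7 of the 10 genes (73.7% of all genes), from parental KMS-11 in 8 (63.8%) and from parental U266 in 7 (66.5%). Parental U266 differed from parental RPMI8226 in 8 (79.1%) and from parental KMS-11 in 8 (66.0%), and parental KMS-11 from parental RPMI8226 in 8 (76.9%). These shares are close to those of all genes. Each line had its own high carriers: parental U266 was highest in SLC7A11, SLC38A2, SLC38A1 and SLC3A2, parental RPMI8226 in SLC7A5 and SLC7A6, parental IM-9 in SLC7A2, SLC7A1 and SLC1A4, and parental KMS-11 in SLC1A5. Of these leads, that of U266 over the next line did not pass for SLC38A1 or SLC3A2, nor that of IM-9 for SLC7A1 or SLC1A4, nor that of KMS-11 for SLC1A5.

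Among the 10 genes, the group means of SLC7A11 and SLC38A2 correlated at r = 0.79 over the 8 groups and those of SLC7A5 and SLC3A2 at 0.73, while SLC7A2 and SLC3A2 correlated at −0.81. The 8 groups come from 4 lines, so these values mainly describe the order of the lines. By the same measure, the tested genes closest to SLC7A11 were HEATR5A, NOP53 and TTN (r = 0.983, 0.978 and 0.977), to SLC7A2 TMOD2, PRRC1 and MAP1B (0.971, 0.970 and 0.965), and to SLC7A5 FAU, ADCY3 and ANKRD13B (0.969, 0.968 and 0.966). SLC3A2 was closest to VAMP7 (0.998), SLC38A2 to CT83 (0.995), SLC7A6 to SLC27A2 (0.991) and SLC1A4 to SLC5A3, a myo-inositol carrier (0.991). SLC7A1 was closest to SHCBP1 (0.983), SLC1A5 to LRP8 (0.971) and SLC38A1 to ENDOD1 (0.967).

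Other surface carriers of amino acids were read from a list of 27 genes, of which 12 were bright enough to test. Of these 12, 5 fell and 0 rose in RPMI8226 (15.3% and 10.7% of all genes tested), 2 fell and 0 rose in KMS-11 (5.83% and 2.44%), 0 fell and 1 rose in U266 (8.42% and 9.68%), and 4 fell and 1 rose in IM-9 (21.3% and 14.4%). The same shares over all genes apply to the lists that follow, and no list was tested as a whole. The taurine carrier SLC6A6 fell by 0.58 ± 0.07 in RPMI8226 and fell by 0.99 ± 0.07 in IM-9. SLC6A15, a carrier of branched-chain amino acids and proline, fell by 0.93 ± 0.09 in RPMI8226 and fell by 0.41 ± 0.09 in KMS-11. The neutral carrier SLC6A19 fell by 1.02 ± 0.10 in RPMI8226 and fell by 0.29 ± 0.10 in IM-9. Its group mean was above the table median only in parental RPMI8226, at 6.61, so the brightness rule may favour a fall there. RPMI8226 HR cells were at 5.59. In IM-9 both groups lay under the median, at 5.13 in HR and 5.42 in parental cells, so that this call rests on a dim signal. SLC43A1, or LAT3, fell by 0.38 ± 0.09 in RPMI8226 and fell by 0.36 ± 0.09 in KMS-11.

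The response to amino acid shortage around ATF4 was read from 22 tested genes. Of these, 13 fell and 3 rose in IM-9 (median −0.42), 8 fell and 4 rose in U266 (median −0.16), 3 fell and 3 rose in KMS-11 (median −0.12), and 1 fell and 8 rose in RPMI8226 (median 0.07). The transcript of ATF4 itself was called in no line. It was at −0.21 in IM-9, −0.18 in U266, −0.10 in KMS-11 and 0.09 in RPMI8226. ASNS, the asparagine synthetase, rose by 0.31 ± 0.07 in RPMI8226, fell by 0.28 ± 0.07 in U266 and fell by 1.05 ± 0.07 in IM-9, the same directions as SLC7A11 in those lines. In KMS-11 neither gene was called, and their signs were opposite, ASNS being at −0.22 and SLC7A11 at 0.26. PHGDH, which starts serine synthesis, rose by 1.43 ± 0.10 in RPMI8226, fell by 0.38 ± 0.10 in KMS-11 and fell by 1.27 ± 0.10 in IM-9. ALDH18A1, which starts proline synthesis, fell by 0.21 ± 0.06 in RPMI8226, fell by 0.29 ± 0.06 in KMS-11, rose by 0.40 ± 0.06 in U266 and fell by 0.53 ± 0.06 in IM-9. VLDLR, a lipoprotein receptor, rose by 0.91, 0.98 and 0.81 (± 0.08) in the lines RPMI8226, KMS-11 and U266, with a difference of 0.03 in IM-9.

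The cytosolic aminoacyl-tRNA synthetases, which load amino acids onto tRNA, were read from 19 tested genes. Of these, 5 rose, 1 fell and 13 were not called in RPMI8226, where 10.7% of all genes rose and 15.3% fell. In IM-9 9 fell (21.3% of all genes), in U266 6 (8.42%) and in KMS-11 4 (5.83%). In those lines 0 rose, and 10, 13 and 15 were not called. MARS1 rose by 0.19 ± 0.06 in RPMI8226 and fell by 0.45, 0.22 and 0.21 (± 0.06) in IM-9, KMS-11 and U266. SARS1 fell by 0.86 ± 0.08 in IM-9, YARS1 fell by 0.51 ± 0.06 there and VARS1 fell by 0.50 ± 0.07.

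**Figure D4:**
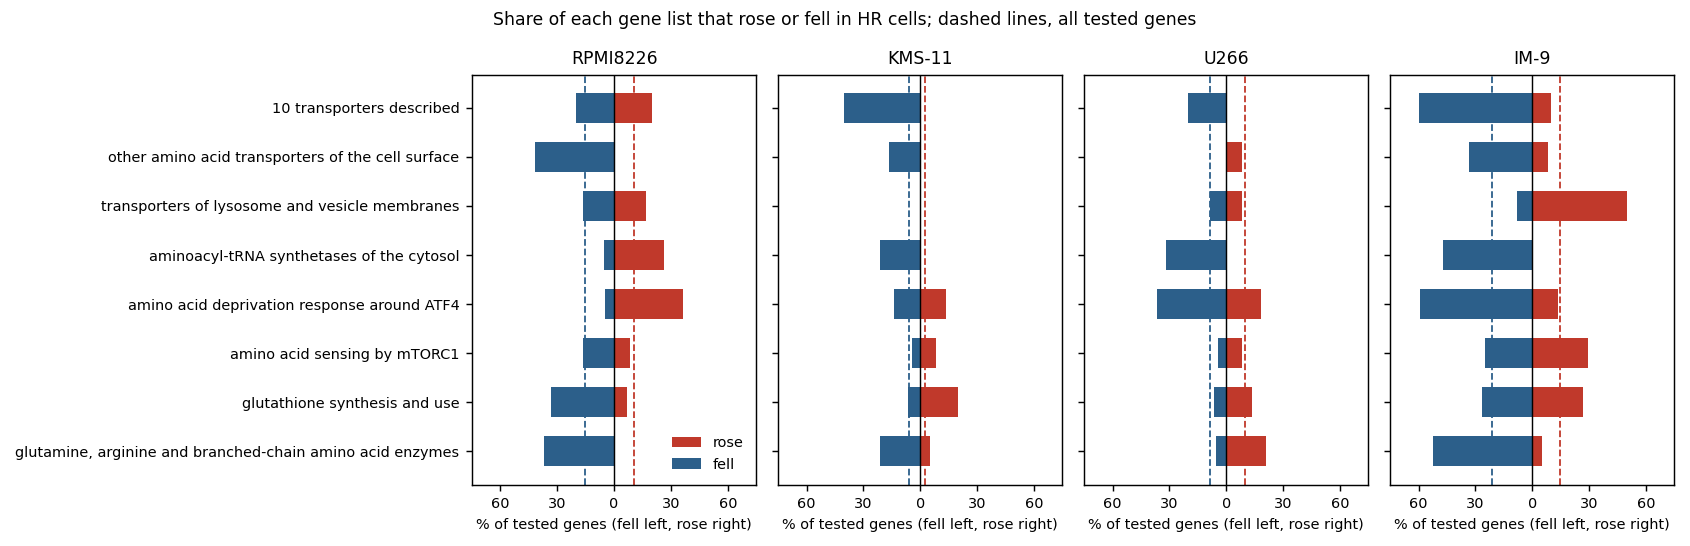
Share of the tested genes of each list (horizontal axis, percent) that fell, to the left in blue, or rose, to the right in red, in HR cells of the 4 lines; the top bar is the 10 transporter genes and the dashed lines give the shares over all 12639 tested genes. In IM-9 6 of the 10 transporter genes and 13 of the 22 ATF4 response genes fell.

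Enzymes that use the carried amino acids were counted in the same way. Of 19 tested enzymes of glutamine, arginine and branched-chain amino acids, 10 fell and 1 rose in IM-9, 7 fell and 0 rose in RPMI8226, 4 fell and 1 rose in KMS-11, and 1 fell and 4 rose in U266, with 8, 12, 14 and 14 not called. ASS1, which makes the precursor of arginine, fell by 2.05 ± 0.11 in IM-9, the line in which the arginine carrier SLC7A2 fell by the same amount, and fell by 0.43 ± 0.11 in RPMI8226. The arginase ARG2 rose by 0.62 ± 0.19 in U266 and by 0.58 ± 0.19 in IM-9 and fell by 0.81 ± 0.19 in RPMI8226. The aspartate aminotransferase GOT2 fell in 4 of 4 lines, by 0.40 ± 0.06 in IM-9 and by 0.24 or 0.25 (± 0.06) elsewhere, and GOT1 fell by 0.65 ± 0.06 in IM-9.

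Glutathione is made in part from the cystine that SLC7A11 brings in. Of 15 tested genes of its synthesis and use, 1 rose and 5 fell in RPMI8226, the line in which SLC7A11 rose, 2 rose and 1 fell in U266 and 4 rose and 4 fell in IM-9, where it fell, and 3 rose and 1 fell in KMS-11, where it was not called. SRXN1, a target of the antioxidant factor NRF2, fell by 0.74 ± 0.08 in RPMI8226, rose by 0.39 ± 0.08 in KMS-11, fell by 0.66 ± 0.08 in U266 and fell by 0.26 ± 0.08 in IM-9. HMOX1, another NRF2 target, rose in 4 of 4 lines, by 1.57 in RPMI8226, 1.81 in IM-9, 0.78 in KMS-11 and 0.77 in U266 (± 0.13). GSS, the glutathione synthetase, fell by 0.33 ± 0.07 in RPMI8226, fell by 0.21 ± 0.07 in IM-9 and rose by 0.26 ± 0.07 in U266, and GGCT, which acts in glutathione breakdown, fell by 0.45 ± 0.07 in KMS-11 and fell by 0.30 ± 0.07 in both RPMI8226 and IM-9.

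Of 8 tested regulators of carrier genes, 0 rose and 2 fell in RPMI8226, 1 rose and 0 fell in KMS-11, and 1 rose and 2 fell in both U266 and IM-9. MYC rose by 0.55 ± 0.06 in U266 and fell by 0.77 ± 0.06 in IM-9. SLC7A5 and SLC1A5, the genes with the E-boxes shown above, both fell in IM-9 and were at −0.05 and −0.27 in U266, where SLC1A5 fell. MYC was not called in KMS-11, where SLC7A5 fell and SLC1A5 was not called. Nor was MYC called in RPMI8226, where SLC1A5 rose and SLC7A5 was not called. A link between MYC and these genes was not tested. MYCN fell by 1.33 ± 0.12 in RPMI8226, and so did EPAS1, or HIF-2 alpha, by 1.47 ± 0.11. BACH1, a repressor of antioxidant genes, rose by 0.35 ± 0.08 in KMS-11, fell by 0.38 ± 0.08 in U266 and rose by 0.37 ± 0.08 in IM-9. Of the 5 genes with a TGATGNAA match, SLC7A1, SLC3A2 and SLC1A5 fell in IM-9 while SLC1A4 rose and SLC38A1 was not called, and in RPMI8226 SLC1A5 rose while SLC7A1 fell.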

How the data were processed

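RNA of 16 samples was measured on Affymetrix arrays. The authors deposited log2 intensities for 33297 probe sets; Affymetrix Expression Console 1.3.0 is named per the submitters' processing notes, and its background correction and normalization are not given in the sources used here. Array medians lay between 6.22 and 6.34, and no detection calls were used. A later Gene ST array is named by the design text than by the platform table, whose 21214 probe sets are all in the deposited table and through which genes were named (19460 probe sets with 1 symbol, 1754 with several, 12083 not listed), and current symbols, chromosomes and gene order came from RefSeq (GRCh38.p14; 19429 matched). The number of arrays limits the precision.

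Samples were grouped by their titles. Differences were tested with limma 3.58.1 (lmFit, eBayes, 2-sided) in R 4.3.3: 8 groups sharing 1 spread for differences within lines, between parental lines and between neighbours in the order of the 8 group means, an F test for differences between the 4 HR effects, and line means with the line as block across lines. The code was tested on simulated data. Alternatives were the filter, normalization, centring, weights, prior, replicate block, probe set rule and leaving out arrays or lines. All members are named, and from each other list up to 4 genes called in the most lines. Neighbouring genes were added after the values were seen. Members and lists were chosen with earlier results of these data known. Probe sets were not checked for probes shared with near-identical genes.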

Additional observations from a re-analysis of the deposited data

Results flagged for a closer look

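The HR effect differed between the 4 lines, by the F test of the difference itself in limma, for 8 of the 10 transporter genes, where 45.4% of all genes tested differed. The adjusted p was 2.2e-05 for SLC7A11, 2.45e-05 for SLC7A2, 7.81e-05 for SLC1A4, 0.000814 for SLC7A5 and 0.00178 for SLC1A5, and these 5 passed under all 24 alternatives. It was 0.0206 for SLC38A2 (passed under 21 of 24), 0.0312 for SLC7A1 (15 of 24) and 0.0336 for SLC7A6 (14 of 24), with the highest values at 0.074, 0.129 and 0.107. SLC7A11 and SLC1A5 both rose in RPMI8226 and fell in U266 and IM-9, and SLC1A4 rose in IM-9 and fell in KMS-11. The SLC1A5 calls in RPMI8226 and U266 and the SLC1A4 call in IM-9 were among those lost without at least 1 array. Groups of 2 arrays are too small for a search for single outlying arrays.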

How the results depend on the processing

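Of 480 recomputed member differences, 435 kept their direction and side of the threshold, 28 lost and 9 gained a call, and 8 changed sign. None of the sign changes touched a call: with quantile normalization again SLC7A5 in RPMI8226 and SLC38A1 in IM-9 were both at −0.01, and without 1 array SLC7A5 in RPMI8226 ran from −0.01 to 0.04, SLC3A2 there from −0.08 to 0.01, SLC38A1 there from 0 to 0.09, SLC7A2 in U266 from −0.59 to 0.01 and SLC38A2 in IM-9 from −0.12 to 0.04. Without 1 array, members called were 2 to 3 in RPMI8226, 1 to 3 in U266 and, for the F test, 5 to 8, while genes called were 348 to 401 in KMS-11 and 1425 to 1532 in U266; these fits leave 1 group with a single array. Array weights called 2083 genes in KMS-11. Across lines, 1 gene, LGMN, passed without RPMI8226. With array numbers as a replicate block, 176 genes and 0 of the 10 passed across lines. That fit took single arrays, so its unit was the pair of same-numbered arrays and no longer the line. It counts the 2 arrays of a group as independent, and its 176 genes say nothing about a difference between lines as units. Within lines the block ended the call of SLC7A1 in KMS-11 (adjusted p = 0.0691) and made one for SLC7A11 there (0.0426). Same-numbered arrays share only a number: their deviations correlated at 0.20 in RPMI8226, 0.11 in IM-9, 0.07 in KMS-11 and −0.05 in U266. The cause of these changes was not tested.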

Other observations

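Carriers of the lysosome and other vesicles were read from a list of 13 genes. Of 12 tested, 6 rose and 1 fell in IM-9 HR cells, where 14.4% of all genes rose, and 2 rose and 2 fell in RPMI8226, 1 and 1 in U266 and 0 and 0 in KMS-11. CTNS, the lysosomal cystine exporter, rose by 0.88 ± 0.08 in IM-9 and fell by 0.23 ± 0.08 in RPMI8226, while SLC7A11 fell in IM-9 and rose in RPMI8226. In U266, where SLC7A11 fell, CTNS was at −0.15 and was not called. SLC15A4, a lysosomal carrier of peptides and histidine, rose by 0.43, 0.47 and 0.32 (± 0.08) in the lines RPMI8226, U266 and IM-9, and MFSD12 fell by 0.33 and 0.25 in RPMI8226 and IM-9 (± 0.08). SLC38A6 fell by 0.66 ± 0.08 in U266.

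Among 24 tested genes of amino acid sensing by mTORC1, 7 rose and 6 fell in IM-9, 2 rose and 4 fell in RPMI8226, and 2 rose and 1 fell in both KMS-11 and U266. SESN3, a sestrin that restrains mTORC1, rose by 1.72 ± 0.08 in IM-9 and fell by 1.34 ± 0.08 in RPMI8226. RRAGD, a Rag GTPase, rose by 1.21 ± 0.09 and fell by 0.64 ± 0.09 in the same lines. SAMTOR, the sensor of S-adenosylmethionine, rose in 4 of 4 lines, by 0.94 ± 0.08 in U266 and by 0.45 to 0.54 (± 0.08) elsewhere. DDIT4, an inhibitor of mTORC1 known to respond to low oxygen, rose by 1.96 ± 0.10 in KMS-11 and 0.68 ± 0.10 in U266, rose in RPMI8226 as well, and fell by 0.54 ± 0.10 in IM-9.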
